A study of Mus musculus with 19 samples.

Results

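The 52 genes described here copy DNA in S phase or separate chromosomes in mitosis. They were taken from a list of gene names, and all 52 were found among the 51707 genes of the summed tables. The list falls into 27 S phase genes and 25 mitotic genes. They were measured by RNA-seq in 2 cell populations that flow sorting had separated out of mouse pancreatic ductal adenocarcinoma (PDAC). The tumours had been grown by orthotopic transplantation of organoids labelled T-LOH KPC into C57BL/6J mice. The labels give neither the alleles behind that name nor the age of the mice. Mice were treated for 2 weeks with neratinib, a drug that binds the ERBB kinases, such as EGFR and HER2, irreversibly and blocks them, or with vehicle. PDPN+ cells, called CAFs (cancer-associated fibroblasts) in the labels, gave 4 neratinib and 4 vehicle libraries. EpCAM+ cells, called epithelial cells, gave 5 neratinib and 6 vehicle libraries. Each library is named N (neratinib) or V (vehicle) with a 5-digit number that was read as the mouse. The RNA came from a spin column made for small samples, and the library kit was a low-input one whose PCR cycles followed the RNA amount. How many cycles each library had is not in the labels. Reading the number as the mouse is an inference from the labels that gives 11 mice, 8 of them with both populations and none with both treatments, and the p-values rest on it.

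A dividing cell prepares for DNA copying by loading the MCM helicase ring onto origins, which needs CDC6 and CDT1, and then switches the ring on with CDC45 and the GINS complex. Ribonucleotide reductase, thymidylate synthase and thymidine kinase supply the nucleotides. The E2F transcription factors turn on many of these genes as cells enter S phase. Later, cyclin B with CDK1, the Aurora and Polo kinases and the anaphase-promoting complex run mitosis. Many genes of this later wave are regulated through a promoter element called the cell cycle genes homology region (CHR), bound by the MuvB complex together with B-MYB and FOXM1, and through CCAAT boxes bound by NF-Y. Because the RNA of most of these genes is low in resting cells, the group is widely used as a readout of proliferation. In a bulk sample, fewer dividing cells and less RNA per dividing cell cannot be told apart.

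The promoter sequences of the 2 waves differed in the letters they held. RefSeq promoter windows (250 bases before to 50 bases after the annotated start, build GRCm38.p6) were at hand for 44 of the 52 genes, 24 of S phase and 20 of mitosis. These windows are reference sequence and were not used with any coordinate of the RNA-seq files. An E2F element was searched as TTTCCCGC, TTTCGCGC, TTTGCCGC or TTTGGCGC, a CHR as TTTGAA or TTCGAA, and an NF-Y box as CCAAT, each on both strands. An E2F match lay in the windows of 11 of 24 S phase genes (45.8%) and 1 of 20 mitotic genes (5.00%), against 2.60% of the 27025 genes in the table. The order was turned round for the CHR, found in 7 of 24 S phase genes (29.2%) and 15 of 20 mitotic genes (75.0%), against 21.7% of all genes. CCAAT was frequent in both, in 17 of 24 S phase genes (70.8%) and 17 of 20 mitotic genes (85.0%), against 41.1% of all genes. A CHR and a CCAAT together lay in 6 of 24 S phase genes (25.0%) and 15 of 20 mitotic genes (75.0%), against 8.61% of all genes. A match describes letters and is no evidence that a factor binds there.

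**Figure D1:**
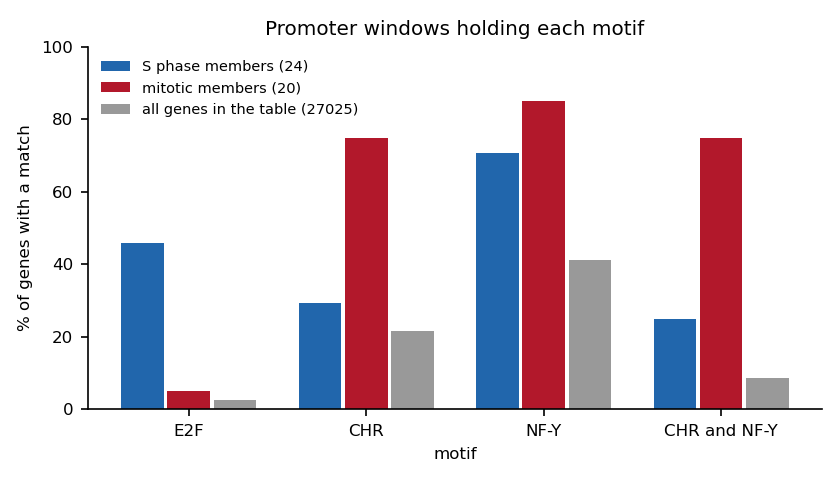
Share of genes (y axis, percent) whose RefSeq promoter window holds each motif (x axis) for 24 S phase members (blue), 20 mitotic members (red) and all 27025 genes in the table (grey). The blue bar leads for E2F at 45.8%, and the red bar leads for CHR and for CHR with NF-Y at 75.0%.

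The 200 bases upstream of the start of 6 members illustrate the contrast, 3 S phase genes first and 3 mitotic genes after them. These examples are sharper than the full lists. All 3 S phase genes shown have an E2F match and no CHR, where 11 and 7 of 24 had these motifs. All 3 mitotic genes shown have a CHR, where 15 of 20 had one. Capitals mark matches to the motifs above, and matches may overlap one another. Mcm6, a subunit of the helicase ring, has 3 E2F matches, 2 of which overlap, and 2 NF-Y boxes (chr1:128359706-128359905 on the reverse strand). Pola1, the catalytic subunit of DNA polymerase alpha, has 1 E2F match and 1 NF-Y box (chrX:93632156-93632355 on the reverse strand). E2f7, an atypical E2F that represses E2F targets, has 1 E2F match and 2 NF-Y boxes (chr10:110745239-110745438 on the forward strand). Cdk1, the kinase that drives entry into mitosis, is the 1 mitotic gene with an E2F match, and also has 2 CHR matches and 2 NF-Y boxes (chr10:69352913-69353112 on the reverse strand). Top2a, the topoisomerase that untangles sister chromatids, has 4 CHR matches and 5 NF-Y boxes (chr11:99024190-99024389 on the reverse strand). Ube2c, the ubiquitin-conjugating enzyme of the anaphase-promoting complex, has 1 CHR match and 5 NF-Y boxes (chr2:164769729-164769928 on the forward strand). Each sequence is printed 5′ to 3′ on the strand of its gene.
Mcm6: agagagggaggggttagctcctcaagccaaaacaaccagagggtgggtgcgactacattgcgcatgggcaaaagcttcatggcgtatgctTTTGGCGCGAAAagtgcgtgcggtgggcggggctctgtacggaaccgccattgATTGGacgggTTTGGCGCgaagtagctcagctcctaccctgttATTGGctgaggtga
Pola1: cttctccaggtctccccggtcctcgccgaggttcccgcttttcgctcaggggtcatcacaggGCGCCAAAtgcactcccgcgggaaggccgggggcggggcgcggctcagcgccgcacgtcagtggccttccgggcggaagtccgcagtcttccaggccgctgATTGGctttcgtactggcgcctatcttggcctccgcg
E2f7: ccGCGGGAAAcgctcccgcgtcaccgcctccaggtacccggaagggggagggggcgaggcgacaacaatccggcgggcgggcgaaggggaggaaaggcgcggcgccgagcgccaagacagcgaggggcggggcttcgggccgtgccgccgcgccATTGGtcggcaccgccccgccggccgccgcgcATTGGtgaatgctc
Cdk1: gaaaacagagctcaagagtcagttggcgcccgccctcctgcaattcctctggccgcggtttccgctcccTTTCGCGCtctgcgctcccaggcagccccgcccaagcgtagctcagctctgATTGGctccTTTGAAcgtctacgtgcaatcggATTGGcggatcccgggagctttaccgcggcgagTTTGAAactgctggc
Top2a: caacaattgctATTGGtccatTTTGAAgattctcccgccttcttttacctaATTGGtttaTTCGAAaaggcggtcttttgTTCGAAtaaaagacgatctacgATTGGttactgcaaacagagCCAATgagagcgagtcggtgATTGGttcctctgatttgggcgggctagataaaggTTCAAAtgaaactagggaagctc
Ube2c: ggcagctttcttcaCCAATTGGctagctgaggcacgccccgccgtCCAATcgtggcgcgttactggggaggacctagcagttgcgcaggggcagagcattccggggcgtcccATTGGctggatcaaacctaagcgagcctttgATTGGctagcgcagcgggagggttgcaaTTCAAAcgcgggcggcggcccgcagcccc

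Libraries held 3.33e+07 to 7.69e+07 transcript reads (Salmon's estimated counts). EpCAM+ libraries had 16542 to 17984 genes with at least 10 reads, while PDPN+ libraries ranged from 11924 (V53188) to 18602 (V53185). Mitochondrial transcripts took 6.14 to 19.4% of the reads in genes in PDPN+ libraries and 2.15 to 2.89% in EpCAM+ libraries. The summed level of 9 fibroblast markers was 6717 to 10415 TPM (Salmon's length-corrected measure of a gene's share of the transcripts in a library) in PDPN+ libraries and 10.4 to 106 TPM in EpCAM+ libraries. The summed level of 7 epithelial markers was 286 to 1203 TPM in PDPN+ libraries and 17600 to 23885 TPM in EpCAM+ libraries. Epcam itself lay between 0 and 0.540 TPM in the PDPN+ libraries and was at 0 in 3 of them, whereas the keratin Krt19 lay between 118 and 564 TPM there. The 10 leukocyte markers summed to 36.5 to 469 TPM in PDPN+ and 43.4 to 161 TPM in EpCAM+ libraries, the highest being PDPN+ N53184, where Lyz2 was at 301 TPM. The 7 endothelial markers summed to 5.82 to 35.5 TPM in PDPN+ and 1.08 to 8.92 TPM in EpCAM+ libraries, and the 5 acinar markers to 0.246 to 73.1 and 13.3 to 1205 TPM.

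All 52 genes had at least 10 reads in each of the 11 EpCAM+ libraries. In PDPN+ cells 20 of the 52 did so in all 8 libraries (38.5%), 12 of 27 S phase genes (44.4%) and 8 of 25 mitotic genes (32.0%). Of the 14034 genes with at least 10 reads in every EpCAM+ library, 54.8% also had them in all 8 PDPN+ libraries. The heat map of levels shows these gaps as dark cells that fall on different genes in different PDPN+ libraries. Below, the values of a group are given in rising order of the mouse number: N53178, N53180, N53184 and N53194 for PDPN+ neratinib, V53175, V53179, V53185 and V53188 for PDPN+ vehicle, and N53178, N53180, N53184, N53193 and N53194 for EpCAM+ neratinib. The 6 EpCAM+ vehicle libraries are given by their lowest, median and highest. All levels are TPM, which are per length and so can be compared between genes.

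**Figure D2:**
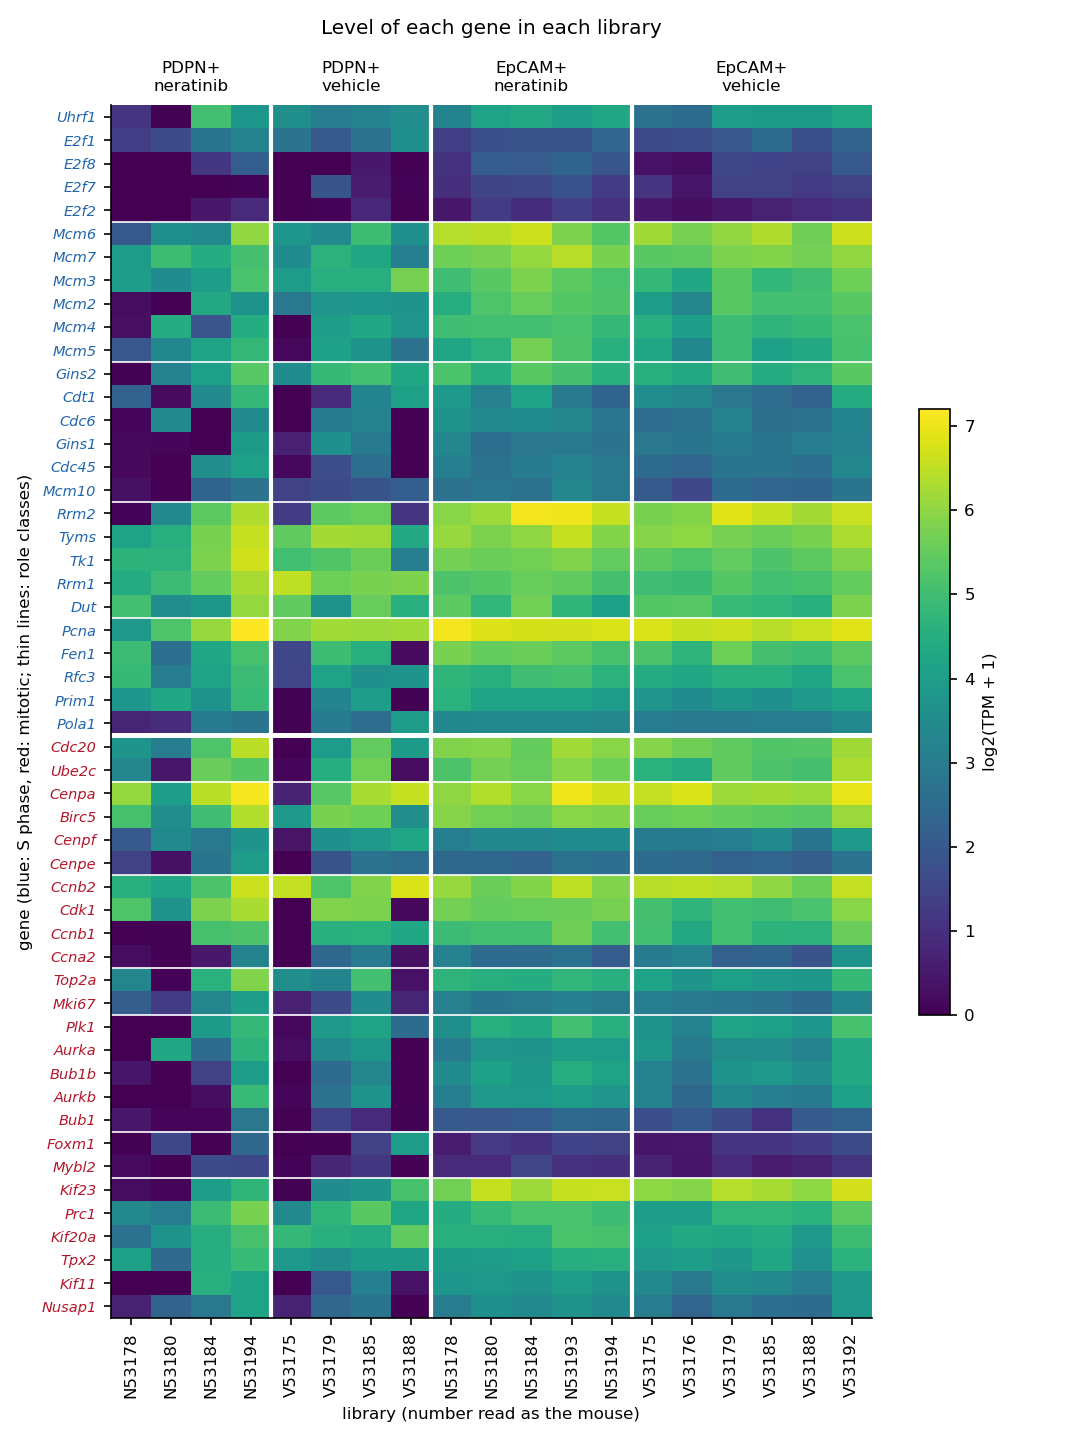
Level of each of the 52 genes (rows, S phase names in blue and mitotic names in red, thin lines between role classes) in each of the 19 libraries (columns) as log2(TPM + 1). EpCAM+ columns hold 0 to 5 genes under 1 TPM each, while PDPN+ columns N53178, N53180, V53175 and V53188 hold 20 to 30.

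RNA of the helicase ring genes was present in every EpCAM+ library, while in PDPN+ cells this depended on the gene. Mcm3, Mcm5, Mcm6 and Mcm7 had at least 10 reads in all 8 PDPN+ libraries, and Mcm2 and Mcm4 in 6 each. PDPN+ levels of Mcm6 were 2.97, 11.2, 9.86 and 65.1 TPM with neratinib and 12.9, 10.0, 30.7 and 11.4 TPM with vehicle. EpCAM+ levels of Mcm6 were 84.3, 87.9, 99.8, 55.4 and 38.4 TPM with neratinib, against a lowest of 49.1, a median of 68.1 and a highest of 99.7 TPM with vehicle. Mcm6 is one of the ring's subunits, and its PDPN+ libraries other than N53194 all lay below its EpCAM+ libraries. PDPN+ levels of Mcm7 were 14.8, 30.7, 21.2 and 32.8 TPM with neratinib and 10.4, 24.0, 18.3 and 7.61 TPM with vehicle. EpCAM+ levels of Mcm7 were 48.4, 51.7, 65.9, 85.3 and 52.8 TPM with neratinib, against a lowest of 40.5, a median of 52.3 and a highest of 64.5 TPM with vehicle. For Mcm7, another subunit, every PDPN+ library lay below every EpCAM+ library. PDPN+ levels of Mcm3 were 15.3, 10.2, 15.1 and 34.4 TPM with neratinib and 15.0, 22.4, 22.4 and 51.8 TPM with vehicle. EpCAM+ levels of Mcm3 were 30.9, 40.6, 54.1, 40.9 and 34.3 TPM with neratinib, against a lowest of 18.9, a median of 29.1 and a highest of 48.3 TPM with vehicle. The PDPN+ and EpCAM+ ranges of Mcm3 overlapped, and V53188 was the highest PDPN+ library. PDPN+ levels of Mcm2 were 0.178, 0.0183, 19.5 and 11.7 TPM with neratinib and 6.43, 12.6, 12.8 and 12.4 TPM with vehicle. EpCAM+ levels of Mcm2 were 21.6, 36.6, 45.6, 38.4 and 35.4 TPM with neratinib, against a lowest of 8.71, a median of 32.2 and a highest of 40.1 TPM with vehicle. Mcm2 was nearly absent from 2 of the 4 PDPN+ neratinib libraries, N53178 and N53180, and was lowest in V53176 and V53175 among EpCAM+ libraries.

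Most factors that load or switch on the helicase were lower in level than the ring genes, and they were patchy in PDPN+ cells. Gins2 was the exception in level. Its mean over all libraries was 24.4 TPM, against 19.3 TPM for Mcm5 and 22.2 TPM for Mcm2. PDPN+ levels of Gins2 were 0.0378, 8.24, 15.7 and 39.3 TPM with neratinib and 10.3, 27.3, 32.1 and 18.8 TPM with vehicle. EpCAM+ levels of Gins2 were 35.3, 21.7, 40.6, 32.7 and 22.8 TPM with neratinib, against a lowest of 19.7, a median of 23.4 and a highest of 39.9 TPM with vehicle. Gins2, a GINS subunit, was the most abundant of this class. PDPN+ levels of Mcm10 were 0.250, 0, 4.03 and 5.69 TPM with neratinib and 1.63, 2.18, 2.67 and 3.44 TPM with vehicle. EpCAM+ levels of Mcm10 were 5.53, 6.13, 5.43, 9.10 and 6.61 TPM with neratinib, against a lowest of 1.94, a median of 4.02 and a highest of 5.82 TPM with vehicle. Mcm10, which helps to start replication forks, was at 0 in PDPN+ N53180. Cdc6, the loading factor, had 0.0798, 9.48, 0.0100 and 10.0 TPM in PDPN+ neratinib and 0, 7.06, 7.94 and 0 TPM in PDPN+ vehicle libraries. Gins1 shared its complex with Gins2 but not its pattern, with 0.134, 0.0640, 0 and 14.1 TPM and 0.584, 11.3, 6.52 and 0 TPM in the same libraries. In PDPN+ N53184 Gins2 was at 15.7 TPM while Gins1 was at 0.

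At the fork itself levels differed widely between genes. Means over all libraries were 89.8 TPM for Pcna, 30.2 for Fen1, 20.8 for Rfc3, 13.9 for Prim1 and 6.96 for Pola1. PDPN+ levels of Pcna were 13.4, 36.5, 66.9 and 147 TPM with neratinib and 56.7, 72.6, 70.6 and 72.5 TPM with vehicle. EpCAM+ levels of Pcna were 134, 112, 106, 105 and 111 TPM with neratinib, against a lowest of 85.1, a median of 98.3 and a highest of 116 TPM with vehicle. Pcna, the sliding clamp, was the most abundant of the 52 genes in EpCAM+ cells in both treatments, and among PDPN+ libraries it was lowest in N53178 and highest in N53194. PDPN+ levels of Rfc3 were 27.5, 7.15, 17.1 and 30.0 TPM with neratinib and 1.86, 17.0, 11.3 and 12.3 TPM with vehicle. EpCAM+ levels of Rfc3 were 25.1, 22.4, 30.9, 33.1 and 23.6 TPM with neratinib, against a lowest of 18.2, a median of 21.5 and a highest of 34.5 TPM with vehicle. Rfc3 is a subunit of the clamp loader. In PDPN+ cells 3 of its 4 neratinib libraries lay above every vehicle library, N53184 only narrowly, and N53180 lay below 3 vehicle libraries. PDPN+ levels of Pola1 were 0.690, 0.900, 6.99 and 5.78 TPM with neratinib and 0.0377, 6.98, 4.96 and 14.8 TPM with vehicle. EpCAM+ levels of Pola1 were 9.36, 9.52, 9.82, 9.76 and 8.65 TPM with neratinib, against a lowest of 6.46, a median of 7.12 and a highest of 9.59 TPM with vehicle. Pola1 was low in 3 PDPN+ libraries (N53178, N53180 and V53175) and highest in V53188.

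Genes of nucleotide supply were abundant, and the subunits of ribonucleotide reductase parted in PDPN+ cells. PDPN+ levels of Rrm1 were 20.5, 29.5, 44.4 and 75.6 TPM with neratinib and 91.0, 48.6, 53.2 and 55.2 TPM with vehicle. EpCAM+ levels of Rrm1 were 35.6, 38.9, 45.3, 43.1 and 33.2 TPM with neratinib, against a lowest of 29.4, a median of 32.5 and a highest of 44.3 TPM with vehicle. Rrm1, the large subunit of ribonucleotide reductase, was highest in PDPN+ V53175. PDPN+ levels of Rrm2 were 0.0460, 9.44, 40.6 and 80.4 TPM with neratinib and 1.45, 41.6, 45.0 and 1.13 TPM with vehicle. EpCAM+ levels of Rrm2 were 60.4, 70.7, 135, 129 and 95.0 TPM with neratinib, against a lowest of 53.7, a median of 84.7 and a highest of 115 TPM with vehicle. The small subunit Rrm2, whose RNA is made in S phase, was under 2 TPM in PDPN+ N53178, V53175 and V53188, where Rrm1 was at 20.5, 91.0 and 55.2 TPM. PDPN+ levels of Tk1 were 24.3, 23.9, 54.5 and 102 TPM with neratinib and 31.7, 37.5, 47.4 and 7.48 TPM with vehicle. EpCAM+ levels of Tk1 were 51.1, 47.0, 50.4, 56.2 and 43.4 TPM with neratinib, against a lowest of 35.9, a median of 42.0 and a highest of 56.5 TPM with vehicle. Tk1, thymidine kinase, was lowest in PDPN+ V53188 and highest in N53194, and its treatment groups overlapped in both populations.

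The E2F factors were among the S phase genes with the lowest levels. PDPN+ levels of E2f1 were 1.46, 2.17, 5.99 and 8.32 TPM with neratinib and 5.71, 3.03, 5.43 and 11.4 TPM with vehicle. EpCAM+ levels of E2f1 were 1.51, 2.41, 2.60, 2.68 and 4.07 TPM with neratinib, against a lowest of 2.02, a median of 2.63 and a highest of 4.70 TPM with vehicle. E2f1, an activating E2F, had a range of 1.46 to 11.4 TPM in PDPN+ cells that reached above its EpCAM+ range of 1.51 to 4.70 TPM. PDPN+ levels of E2f7 were 0, 0, 0 and 0.0498 TPM with neratinib and 0, 2.68, 0.493 and 0.0418 TPM with vehicle. EpCAM+ levels of E2f7 were 0.992, 1.77, 1.87, 2.50 and 1.44 TPM with neratinib, against a lowest of 0.357, a median of 1.50 and a highest of 1.71 TPM with vehicle. E2f7 was at or near 0 in 6 of 8 PDPN+ libraries. PDPN+ levels of Uhrf1 were 1.14, 0.0372, 32.5 and 12.9 TPM with neratinib and 11.0, 7.17, 8.31 and 10.6 TPM with vehicle. EpCAM+ levels of Uhrf1 were 8.60, 17.1, 19.4, 15.5 and 18.6 TPM with neratinib, against a lowest of 4.83, a median of 14.3 and a highest of 18.9 TPM with vehicle. Uhrf1, which guides maintenance methylation of newly copied DNA, was highest in PDPN+ N53184 and lowest in N53180. E2f2, another activating E2F, and E2f8, the close relative of E2f7, had no PDPN+ library above 0.800 and 3.45 TPM.

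Among mitotic genes the cyclins and their kinase did not keep step in PDPN+ cells. PDPN+ levels of Ccnb2 were 22.4, 17.3, 35.5 and 98.0 TPM with neratinib and 92.0, 36.3, 56.2 and 111 TPM with vehicle. EpCAM+ levels of Ccnb2 were 66.9, 46.8, 57.8, 90.0 and 56.2 TPM with neratinib, against a lowest of 47.3, a median of 84.7 and a highest of 93.5 TPM with vehicle. Ccnb2, a B-type cyclin, had at least 17.3 TPM in every library. PDPN+ levels of Ccnb1 were 0.0160, 0.0383, 33.3 and 35.9 TPM with neratinib and 0, 22.8, 23.2 and 18.7 TPM with vehicle. EpCAM+ levels of Ccnb1 were 29.7, 32.2, 31.6, 48.9 and 32.4 TPM with neratinib, against a lowest of 19.5, a median of 28.0 and a highest of 46.6 TPM with vehicle. The other B-type cyclin, Ccnb1, was below 0.05 TPM in PDPN+ N53178, N53180 and V53175. PDPN+ levels of Cdk1 were 36.7, 11.8, 53.9 and 76.8 TPM with neratinib and 0, 56.4, 54.1 and 0.128 TPM with vehicle. EpCAM+ levels of Cdk1 were 51.1, 44.2, 45.7, 47.3 and 52.3 TPM with neratinib, against a lowest of 24.8, a median of 32.3 and a highest of 59.9 TPM with vehicle. Cdk1 was near 0 in PDPN+ V53175 and V53188, the vehicle libraries in which Ccnb2 stood at 92.0 and 111 TPM.

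Kinases and regulators of the anaphase-promoting complex followed. PDPN+ levels of Plk1 were 0, 0.0151, 14.3 and 26.9 TPM with neratinib and 0.106, 14.1, 17.5 and 4.84 TPM with vehicle. EpCAM+ levels of Plk1 were 11.0, 22.0, 19.5, 32.6 and 22.3 TPM with neratinib, against a lowest of 7.91, a median of 14.3 and a highest of 33.7 TPM with vehicle. Plk1, the Polo kinase, was under 0.2 TPM in PDPN+ N53178, N53180 and V53175. PDPN+ levels of Cdc20 were 12.2, 7.24, 36.4 and 86.5 TPM with neratinib and 0, 14.7, 43.9 and 14.2 TPM with vehicle. EpCAM+ levels of Cdc20 were 56.5, 59.1, 44.9, 73.3 and 60.4 TPM with neratinib, against a lowest of 37.5, a median of 46.0 and a highest of 72.3 TPM with vehicle. Cdc20, an activator of the anaphase-promoting complex, was at 0 in PDPN+ V53175 and highest in N53194. Aurkb, the kinase of the chromosomal passenger complex, had 0.0197, 0, 0.215 and 28.8 TPM in PDPN+ neratinib and 0.0888, 5.66, 12.0 and 0 TPM in PDPN+ vehicle libraries. Its partner Birc5 (survivin) had 33.4, 10.9, 31.2 and 82.5 TPM and 13.8, 53.5, 47.9 and 10.9 TPM in them. Birc5 was therefore above 10 TPM in each of the 5 PDPN+ libraries in which Aurkb was below 0.3 TPM.

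Among the structural genes of mitosis, Kif23 separated the populations. PDPN+ levels of Kif23 were 0.188, 0.0797, 15.0 and 25.2 TPM with neratinib and 0.0214, 10.1, 12.4 and 33.9 TPM with vehicle. EpCAM+ levels of Kif23 were 49.8, 94.7, 70.6, 95.3 and 96.8 TPM with neratinib, against a lowest of 58.5, a median of 69.0 and a highest of 103 TPM with vehicle. Kif23, a motor needed for cytokinesis, had PDPN+ libraries that all lay below its EpCAM+ libraries. PDPN+ levels of Cenpa were 66.0, 15.0, 87.7 and 137 TPM with neratinib and 0.645, 39.3, 76.6 and 94.5 TPM with vehicle. EpCAM+ levels of Cenpa were 63.1, 81.6, 60.5, 130.0 and 102 TPM with neratinib, against a lowest of 69.8, a median of 83.6 and a highest of 122 TPM with vehicle. Cenpa, the histone of the centromere, was under 1 TPM in PDPN+ V53175 and above 10 TPM in the other 7. PDPN+ levels of Top2a were 8.87, 0.0580, 23.5 and 56.1 TPM with neratinib and 10.8, 8.45, 32.4 and 0.271 TPM with vehicle. EpCAM+ levels of Top2a were 25.0, 22.1, 21.2, 25.7 and 22.6 TPM with neratinib, against a lowest of 12.4, a median of 15.1 and a highest of 27.5 TPM with vehicle. Top2a was under 1 TPM in PDPN+ N53180 and V53188. PDPN+ levels of Mki67 were 3.40, 1.43, 8.65 and 15.5 TPM with neratinib and 0.595, 2.22, 10.2 and 0.693 TPM with vehicle. EpCAM+ levels of Mki67 were 7.83, 5.99, 6.53, 7.65 and 6.57 TPM with neratinib, against a lowest of 4.39, a median of 6.32 and a highest of 8.47 TPM with vehicle. Mki67, the proliferation antigen Ki-67, was highest in PDPN+ N53194 and V53185. PDPN+ levels of Foxm1 were 0.0224, 1.94, 0.00537 and 4.44 TPM with neratinib and 0, 0.0228, 1.66 and 14.5 TPM with vehicle. EpCAM+ levels of Foxm1 were 0.468, 1.29, 1.08, 1.71 and 1.65 TPM with neratinib, against a lowest of 0.352, a median of 1.16 and a highest of 2.12 TPM with vehicle. Foxm1, the mitotic transcription factor, was highest of all 19 libraries in PDPN+ V53188, in which Bub1b and Aurkb, a checkpoint kinase and the passenger kinase, were at 0.

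Counts over all 52 genes show the same unevenness. Genes under 1 TPM numbered 24, 22, 8 and 2 in the PDPN+ neratinib libraries and 30, 5, 4 and 20 in the PDPN+ vehicle libraries. In EpCAM+ libraries they numbered 0 to 5. The number of genes with at least 10 reads was 13992, 13691, 14260 and 14682 in the same PDPN+ neratinib libraries and 12102, 16150, 18602 and 11924 in the PDPN+ vehicle libraries, so the vehicle libraries with the fewest genes were those with the most members under 1 TPM. Of the 52, 67.3, 63.5, 90.4 and 98.1% had at least 10 reads in the PDPN+ neratinib libraries, against 76.9, 77.6, 80.4 and 84.0% of the 14034 genes named above. With vehicle the shares were 55.8, 96.2, 100% and 71.2% of the 52, against 70.2, 88.0, 92.8 and 69.7% of those genes. The members were thus below the other genes in N53178, N53180 and V53175 and above them in the other 5. The median SD of a member's log2 CPM (read counts scaled by TMM library size) was 2.52 in PDPN+ neratinib, 2.77 in PDPN+ vehicle, 0.30 in EpCAM+ neratinib and 0.37 in EpCAM+ vehicle libraries. Wide spread was not particular to the members. Over all genes tested for neratinib, the standard error (SE) had a median of 1.06 in PDPN+ and 0.28 in EpCAM+ cells. Gaps also fell on other genes. In PDPN+ V53188 the keratin Krt18 was at 0.0918 TPM and Krt8 at 130 TPM, while Krt18 had 73.3 to 317 TPM in the other PDPN+ libraries. The part of detection depth in this pattern was not tested beyond these shares.

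To compare the 2 waves, the mean log2 CPM of the 27 S phase genes and of the 25 mitotic genes was taken in each library. On this scale, which is not corrected for gene length, the 2 means lay close together in EpCAM+ cells. It does not compare the levels of the waves, for which the summed TPM ratios below are given. The mitotic minus the S phase mean was 0.0076 ± 0.22 with neratinib (SD, n = 5) and 0.05 ± 0.22 with vehicle (SD, n = 6), and single libraries lay between -0.33 and 0.30. In PDPN+ cells the difference was 0.23, -1.16, 0.42 and 0.76 in the neratinib libraries and -1.88, 0.18, 0.52 and -0.38 in the vehicle libraries. Its mean was 0.06 ± 0.84 with neratinib and -0.39 ± 1.06 with vehicle (SD, n = 4 each), so the treatment groups overlapped. Mitotic genes also varied more than S phase genes across PDPN+ libraries, with a median SD of 3.15 and 3.44 in neratinib and vehicle libraries, against 1.72 and 1.78 for S phase genes. In EpCAM+ cells the medians were 0.29 and 0.41 for mitotic and 0.32 and 0.33 for S phase genes. In summed TPM the mitotic to S phase ratio was 0.869 ± 0.275 in PDPN+ neratinib, 0.835 ± 0.271 in PDPN+ vehicle, 0.813 ± 0.166 in EpCAM+ neratinib and 0.833 ± 0.102 in EpCAM+ vehicle libraries (SD), and single PDPN+ libraries lay between 0.460 and 1.10. The mean of the S phase genes was lowest in PDPN+ V53175, N53178, N53180 and V53188. Of these, V53175 (1.12 for S phase and -0.76 for mitotic genes), N53180 (1.64 and 0.48) and V53188 (2.21 and 1.83) had the mitotic mean lower, and N53178 (1.13 and 1.35) had it higher. For V53188 and N53178 this order depended on the scale: the summed TPM ratio of V53188 was 1.10, and the mitotic minus the S phase mean of N53178 was -0.04 in log2(TPM + 1).

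**Figure D3:**
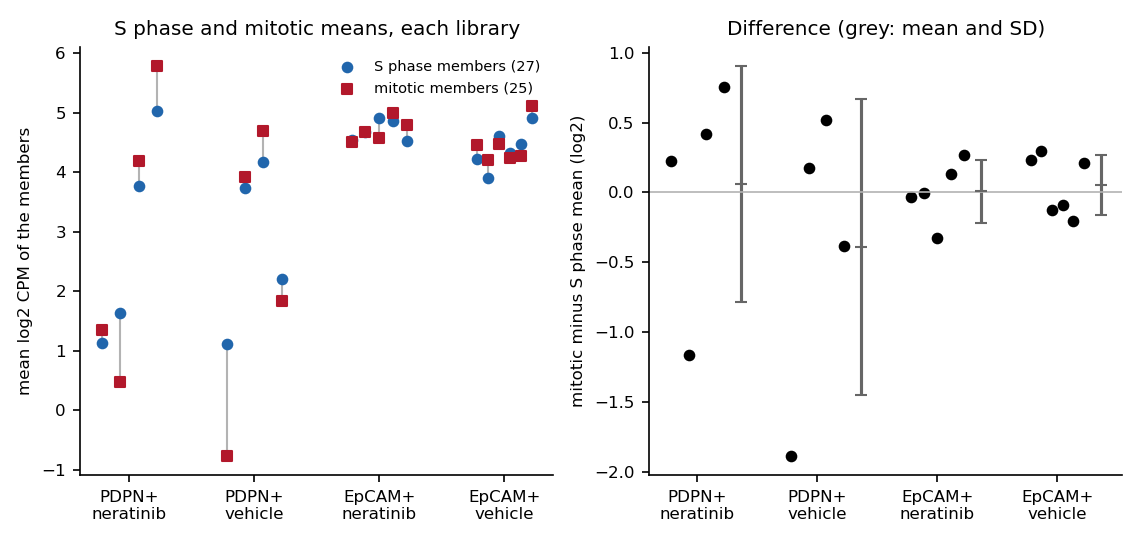
Left, mean log2 CPM (y axis) of the 27 S phase members (blue circles) and the 25 mitotic members (red squares), joined for each library, by group. Right, their difference per library, with the group mean and SD in grey. EpCAM+ libraries cluster near 0, and PDPN+ libraries spread from -1.88 to 0.76.

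One comparison of the design asks what neratinib did to the PDPN+ cells. No member changed at an adjusted p under 0.05 (edgeR quasi-likelihood F-test, Benjamini-Hochberg over 14437 genes), nor did any of these genes (0%). DESeq2 called 76 genes, none of them members. At an unadjusted p under 0.05 edgeR gave 331 genes (2.29%) and 0 of the 49 members it tested; E2f2, E2f7 and E2f8 were too low to be tested. The log2 fold changes, neratinib over vehicle, were positive for 34 of 49 members, where 52.8% of all genes tested were positive. That comprised 14 of 24 S phase genes, with a median of 0.23, and 20 of 25 mitotic genes, with a median of 0.61, while the median of all genes was 0.056. N53194 held the highest PDPN+ neratinib level of 45 of the 52 members, so the signs of the members are not independent observations. Without N53194 the medians were -0.45 for S phase and -0.02 for mitotic genes. The S phase median was also below 0 on the limma scale of log2(TPM + 1), at -0.22 with a mitotic median of 0.24, and with the digit of the file code as a covariate, at -0.17.

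The members with the smallest p in each direction show how wide the errors were. Rfc3 had a log2 fold change of 1.80, SE 0.95 (adjusted p = 1.00, edgeR), which was 1.01 with length offsets and 0.99 in limma on log2(TPM + 1). Tk1 had 1.06, SE 0.63, and its 4 neratinib libraries all lay above V53188 but only N53184 and N53194 lay above every vehicle library. Mcm3 had -0.93, SE 0.61, and -0.12 without V53188. Ccnb2 had -0.88, SE 0.60, and 3 of its 4 neratinib libraries lay below every vehicle library. Mki67 had 1.37, SE 0.90, Top2a 0.71, SE 1.36, Cdk1 0.98, SE 1.56, Ccnb1 0.57, SE 1.92, Mcm2 -0.37, SE 1.46 and Pcna -0.10, SE 0.56. By role, all 5 kinase and checkpoint genes were on the positive side (0.35 to 2.60), as were both genes of the anaphase-promoting complex. The MCM ring was split 3 to 3. These signs are not independent of one another either. Median TPM was lower with neratinib than with vehicle for Aurkb (0.117 against 2.88), Bub1 (0.228 against 0.413) and Bub1b (1.00 against 2.37). It was also lower for Plk1 (7.14 against 9.46) and higher for Aurka (11.8 against 5.10), Cdc20 (24.3 against 14.4) and Ube2c (24.1 against 10.9). Over the 49 members the SE had a median of 1.38 (0.46 to 2.38) on the log2 scale. Changes of that size were not detectable here, and larger fitted changes were not called either. Among these were Bub1 (2.60, SE 2.12), Cdc45 (2.26, SE 2.21) and Kif11 (2.23, SE 2.08).

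In EpCAM+ cells no member changed either. edgeR called 0 of 17200 genes (0%), with 524 under an unadjusted p of 0.05, and DESeq2 called 15 genes, none a member. The smallest adjusted p over all genes was 0.616. Even so, the values leaned one way. Log2 fold changes were positive for 24 of 27 S phase genes (median 0.22) and 22 of 25 mitotic genes (median 0.20), where 49.8% of all genes tested were positive and their median was -0.00086. V53192 alone held the highest EpCAM+ vehicle level of 47 of the 52 members. Members thus moved together within a library, and neither these signs nor the counts below are independent observations. At an unadjusted p under 0.05, 5 of the 52 members were higher with neratinib and none lower, beside 1.51% of all genes that were higher. These were Mcm10 (0.67, SE 0.21), Pola1 (0.34, SE 0.13), Cdc6 (0.53, SE 0.21), Prim1, a primase subunit (0.39, SE 0.17), and Top2a (0.45, SE 0.20). Each had an adjusted p of 0.999 in the same edgeR fit.

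The vehicle library V53192 weighed on this comparison. It held the highest EpCAM+ vehicle level of 47 of the 52 members, and its mitotic mean of 5.11 log2 CPM was the highest of all 11 EpCAM+ libraries. Without it 17 members were higher at an unadjusted p under 0.05, beside 1.64% of all genes, and the medians were 0.36 for S phase and 0.40 for mitotic genes; no member passed adjustment. Without any 1 of the other 10 libraries the unadjusted count was 1 to 4 members higher (1 without N53178), and it was 0 in 1 fit of all 19 libraries. In that fit the median SE over all genes was 0.75, against 0.28 in the fit of EpCAM+ libraries alone. V53192 also had the highest summed level of the 5 acinar markers, 1205 TPM, where the neratinib libraries had 14.1 to 50.1 TPM and the other vehicle libraries 13.3 to 299.5 TPM. Of the 4 acinar markers tested, 3 were lower with neratinib at an unadjusted p under 0.05 (median log2 fold change -5.80), and none passed adjustment; their part in the members' changes was not tested. Leaving out V53175, V53176 and N53178, which had the lowest EpCAM+ levels of Mcm2 and Uhrf1, gave medians of 0.13 for S phase and 0.16 for mitotic genes. These libraries also stood apart in epithelial markers. Cdh1 was at 175 to 207 TPM in them and 569 to 930 TPM in the other EpCAM+ libraries. Epcam was at 582 to 897 TPM against 114 to 208 TPM. They are split unevenly between vehicle and neratinib, and their part in the members' changes was not tested. Pola1 illustrates the overlap, since V53192 at 9.59 TPM lay above 3 of the 5 neratinib libraries while the other 5 vehicle libraries lay below all of them. The lowest log2 fold changes were those of Ccnb2 (-0.36, SE 0.22), Ccna2, the S and G2 cyclin (-0.28, SE 0.41), and E2f1 (-0.25, SE 0.26). Mki67 had 0.064, SE 0.15, Cdk1 0.38, SE 0.19, Ccnb1 0.20, SE 0.23, Mcm2 0.28, SE 0.34 and Pcna 0.11, SE 0.13. The SE of the 52 members had a median of 0.21 here (0.11 to 0.61).

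**Figure D4:**
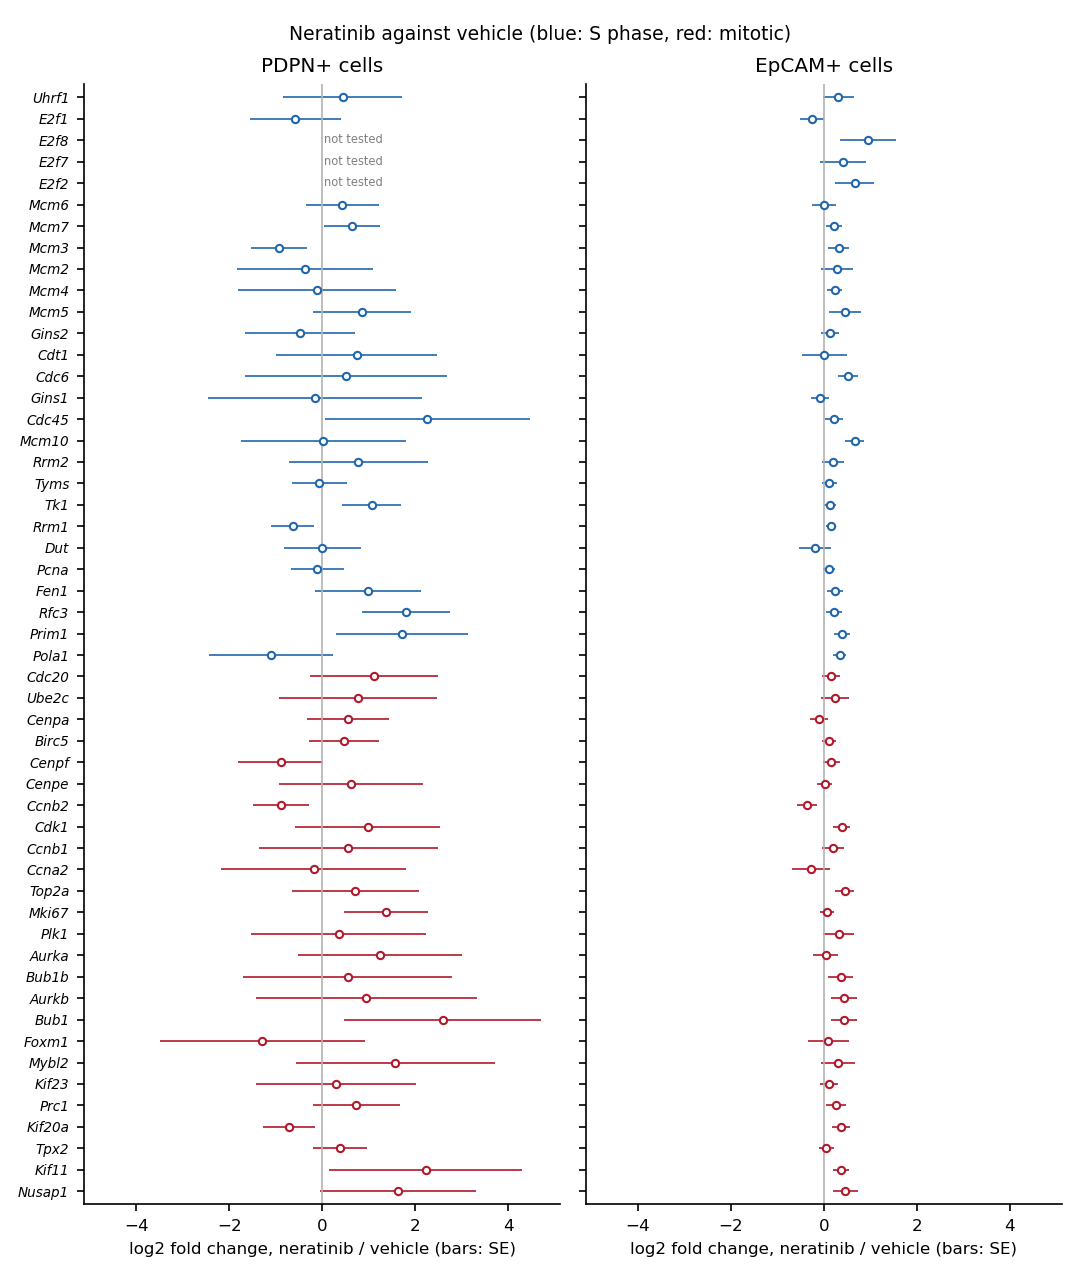
Log2 fold change of each member, neratinib over vehicle (x axis, bars are SE), in PDPN+ cells (left, n = 4 and 4) and EpCAM+ cells (right, n = 5 and 6), with S phase genes in blue and mitotic genes in red. All points are open because no adjusted p was under 0.05; bars are several times wider in PDPN+ cells, and most EpCAM+ points lie just right of 0.

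Between the sorted populations 6 members differed, 5 of them S phase genes. Mitotic genes varied more than S phase genes across PDPN+ libraries, as given above, so this split does not compare the waves. It also moved with the model. In limma on log2(TPM + 1), 18 of 26 S phase and 12 of 24 mitotic members were called, all lower. Over all 19 libraries edgeR called 9673 of 19626 genes, 24.3% higher and 25.0% lower in PDPN+ cells. Of the members, 2 were higher and 4 lower, which are smaller shares than those of all genes. E2f1 was higher (log2 fold change, PDPN+ over EpCAM+, 1.44, SE 0.40, adjusted p = 0.00577, edgeR), as was Rrm1 (0.91, SE 0.22, adjusted p = 0.00188). Mcm7 was lower (-1.06, SE 0.26, adjusted p = 0.00237, edgeR), as were Mcm6 (-1.49, SE 0.40, adjusted p = 0.00457) and the motor Kif23 (-2.32, SE 0.86, adjusted p = 0.0321). E2f7 was lower too (adjusted p = 2.27e-04, edgeR). Its fitted change of -5.27 is no bound on the difference, since the 4 PDPN+ neratinib libraries had 1 read in all. Pooled over libraries it had 159 reads in PDPN+ and 2017 in EpCAM+ cells, a ratio per scaled library size of 0.161 (95% exact interval 0.136 to 0.189, counting error only).

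These calls differed in how far they held. E2f7, Mcm6 and Mcm7 passed under all 29 alternatives run. E2f1 (largest adjusted p = 0.149) and Rrm1 (0.128) lost their calls on the limma scale and without PDPN+ V53175 and V53188, and E2f1 also with the mouse as a block. Kif23 (largest adjusted p = 0.0719) lost its call in 5 alternatives, among them without PDPN+ V53179 (adjusted p = 0.0524) or V53185 (0.0504) and with the mouse as a block (0.0592). With the mouse as a block over the 8 mice that gave both populations, 4 members were called (1 higher, 3 lower), beside 35.6% of all genes. Without PDPN+ N53194, the library with the highest member levels, 13 members were called, 2 higher and 11 lower, beside 23.6% higher and 28.4% lower of all genes.

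Across the 52, the log2 fold changes had a median of -0.54 for S phase genes (7 of 27 positive) and -0.10 for mitotic genes (10 of 25 positive), with -0.13 and 46.4% positive over all genes. These values moved with the model and unit. In limma on log2(TPM + 1) 30 members were lower and 0 higher, beside 47.9% of all genes lower. There the medians were -1.03 and -1.21, with -0.64 over all genes; limma used another unit, filter and model, and which of these moved the values was not tested. The median of all genes was -0.67 with the mouse as a block, where the members had -1.50 for S phase and -1.63 for mitotic genes, and -0.46 without the filter on low counts. With a pseudocount of 0.1 it was 31 members lower, beside 48.7%. Members with a fold change near 0 in edgeR include Mki67 (0.029, SE 0.43), Top2a (0.18, SE 0.68), Cdk1 (0.18, SE 0.74), Ccnb2 (0.23, SE 0.30), Cenpa (-0.094, SE 0.44) and Pcna (-0.16, SE 0.27), none of which passed the test. The summed epithelial markers in PDPN+ libraries were given above, and their part in these levels was not tested.

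**Figure D5:**
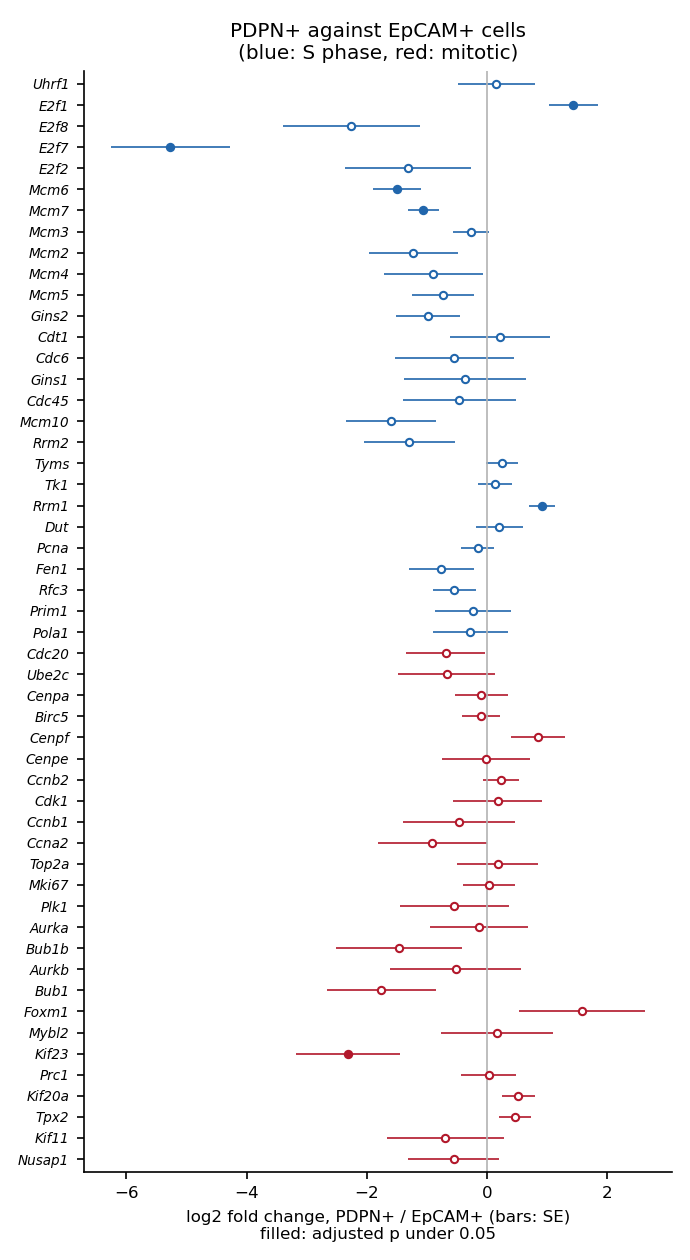
Log2 fold change of each member, PDPN+ over EpCAM+ cells (x axis, bars are SE, all 19 libraries), with S phase genes in blue and mitotic genes in red. Filled points passed an adjusted p under 0.05: E2f1 and Rrm1 on the right, E2f7, Mcm6, Mcm7 and Kif23 on the left.

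Whether neratinib acted differently in the populations was tested as an interaction, a difference of the log2 fold changes (PDPN+ less EpCAM+). Its fit used 1 dispersion (the variance setting of the model) per gene for both populations, although their spread differed. edgeR called 13 of 19626 genes (0.0662%) and no member; at an unadjusted p under 0.05 there were 3 members, Rfc3 (1.57, SE 0.73), Mcm3 (-1.25, SE 0.59) and E2f7. Tk1 had 0.92, SE 0.57. E2f7 had the smallest p of the members (adjusted p = 0.149, edgeR). In PDPN+ cells it had 1 read over the 4 neratinib libraries and 158 over the 4 vehicle libraries, a ratio of 0.0077 (95% exact interval 0.00019 to 0.0435, counting error only). Those 158 reads came from V53179 with 48, V53185 with 109 and V53188 with 1, and V53175 had none, so treatment groups overlapped at 0 and 1 read. In EpCAM+ cells it had 1052 reads over 5 neratinib and 965 over 6 vehicle libraries, a ratio of 1.44 (1.32 to 1.57, counting error only). That interval leaves out the spread between libraries. With libraries as replicates, the log2 fold change of E2f7 in EpCAM+ cells was 0.41, SE 0.49 (unadjusted p = 0.418, edgeR). DESeq2 called E2f7 (adjusted p = 0.00423) beside 691 genes (1.89%). edgeR called it without PDPN+ V53175 and V53188 (adjusted p = 0.00278) beside 572 genes (2.62%), and also without V53175 alone (adjusted p = 0.0413), beside 0.620% of genes. Over all 29 alternatives its adjusted p lay between 0.00278 and 1.00. By wave, 14 of 27 S phase genes (median 0.12) and 20 of 25 mitotic genes (median 0.44) had a positive interaction, with a median of 0.023 over all genes, and without N53194 both medians were below 0 (-0.61 and -0.23).

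Other genes of the same pathways were not called for neratinib either. Of 60 further replication genes, 57 were tested in PDPN+ and 60 in EpCAM+ cells, and none was called in either. Of 84 further mitotic genes, 80 and 84 were tested and none was called. Of 17 further cell cycle transcription genes, 16 were found and tested in each and none was called. In EpCAM+ cells 46 of 60 replication and 71 of 84 mitotic genes had positive log2 fold changes (medians 0.17 and 0.17), but 6 of 16 transcription genes did. In PDPN+ cells 33 of 57 and 51 of 80 were positive (medians 0.18 and 0.38).

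Between populations 5 of the 60 replication genes were higher and 4 lower in PDPN+ cells, 2 of the 84 mitotic genes were higher and 4 lower, and 1 of the 16 transcription genes was higher and 3 lower. In the same fit 24.3% of all genes were higher and 25.0% lower, which are larger shares than in any of these lists. Ccne1, the cyclin that drives entry into S phase, was higher (2.91, SE 0.55, adjusted p = 2.24e-04, edgeR). Also higher were Pold4, a subunit of DNA polymerase delta (1.18), and Top1, a topoisomerase that relieves supercoils (0.92). Lower were Pold2, another subunit of the same polymerase (-1.35), Wdhd1, a fork protein (-2.88), and Pola2, the partner of Pola1 (-2.32). Among mitotic genes Psrc1 (1.64) and the anaphase-promoting complex subunit Anapc11 (0.56) were higher. Arhgap11a (-2.96), the checkpoint gene Bub3 (-0.48) and separase, Espl1 (-2.62), were lower. Of the transcription genes Tfdp2, an E2F partner, was higher (0.97), and the MuvB subunit Lin9 (-1.89), the NF-Y subunit Nfyc (-0.71) and the repressive E2F gene E2f4 (-1.14) were lower. Lin9 was also called in the interaction (-5.87, SE 0.92, adjusted p = 0.0105, edgeR), whereas no gene was called in the interaction with the mouse as a block. It averaged 0.208 ± 0.224 TPM in PDPN+ neratinib and 6.87 ± 5.19 TPM in PDPN+ vehicle libraries (SD, n = 4 each), and 6.16 ± 1.42 TPM in EpCAM+ neratinib (n = 5) and 5.37 ± 1.21 TPM in EpCAM+ vehicle libraries (n = 6).

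Salmon divides reads among transcripts, and the transcript that leads a gene can be compared between populations. For 46 of 52 members the leading transcript by mean TPM was the same in PDPN+ and EpCAM+ cells, and for E2f1, E2f7, Mcm10, Prc1, Tpx2 and Uhrf1 it differed. For E2f1 the transcript that led in EpCAM+ cells held 35.4% of the gene's TPM in PDPN+ cells and 81.8% in EpCAM+ cells. The other transcript, close to it in length at 2732 against 2755 bases, held 64.6% and 18.2%. For E2f7 the transcript that led in PDPN+ cells is 438 bases long and held 60.0% in PDPN+ and 17.3% in EpCAM+ cells, where a transcript of 5473 bases led with 50.0%. TPM divides reads by length, so a few reads on a short transcript weigh heavily. For Mcm10 a transcript of 1343 bases led in PDPN+ cells with 43.5%, against 9.44% in EpCAM+ cells, where one of 3494 bases led with 74.3%. These are shares over group means with no test.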

How the data were processed

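RNA-seq of 19 sorted-cell libraries was used, with groups taken from the labels. The deposited tables, made by the authors with Salmon (1.9.0, builds GRCm39 and mm39 per the submitters' processing notes), give estimated counts (expected counts) and TPM for 147828 transcripts per library; which annotation release and strand setting were used is not given in the sources used here. Of these, 137063 transcripts matched GENCODE M21 names and were summed to 51707 genes; the 10765 unmatched ones (1.77 to 8.96% of reads) were left out. Estimated counts were rounded after summing. Reads of overlapping or antisense genes cannot be told apart.

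Genes were filtered with filterByExpr and tested with edgeR 4.0.16 (TMM, robust quasi-likelihood F-test, R 4.3.3), adjusted by Benjamini-Hochberg over all genes tested, at a threshold of 0.05. Each neratinib comparison used its own population. The populations and the interaction used all 19 libraries, with 1 dispersion per gene for both populations. The members varied more in PDPN+ than in EpCAM+ libraries, so a shared value may suit neither. For neratinib in PDPN+ cells, the fit of all 19 libraries called 111 genes, where the separate fit called 0. How far this moved the p-values of the populations and the interaction was not tested. SEs are the absolute log2 fold change over the square root of F, an approximation. The log2 CPM used a prior count of 2. Depth was 3.33e+07 to 7.69e+07 reads per library, and a count of 0 allows up to 3 reads, at most 0.110 CPM (counting error only). The scripts were run on simulated data first. Alternatives were DESeq2 1.42.0 and its size factors, no low-count filter, limma 3.58.1 on log2(TPM + 1) and log2(TPM + 0.1) for genes with a mean of 1 TPM, length offsets from the deposited effective lengths, 1 fit of all libraries, the digit in the file code as covariate, each library left out, and the mouse as replicate block. The numbers were taken to pair the populations because they were read as mice; correlations of the deviations of 1 mouse's libraries were -0.11 to 0.03. Promoter motifs were exact matches, described with no test.

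The members and lists were chosen with earlier results of these data known. Library values are given for Mki67, Top2a, Cdk1, Ccnb1, Mcm2 and Pcna, for the most abundant member of each role class, and for the members called, or, where none was called, the 2 with the smallest p in each direction, per comparison. Cdc6, Gins1, Aurkb, Birc5, E2f2 and E2f8 were added after their values were seen, to show partners that part. Other genes are the first 3 per list and direction by adjusted p.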

Additional observations from a re-analysis of the deposited data

Results flagged for a closer look

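In 17 of 112 groups of values, the highest or lowest library lay far from the others by Dixon's criterion. Its rate of about 1 in 20 by chance holds for independent groups of normally distributed values. These groups share the same libraries, so the count of 17 cannot be set against that rate. EpCAM+ vehicle library V53192 accounted for 7 of them. It was the highest of its group for Top2a (27.5 TPM), Cdk1 (59.9 TPM), Plk1 (33.7 TPM), Rfc3 (34.5 TPM), Tk1 (56.5 TPM) and Pola1 (9.59 TPM), and for the mean of the mitotic genes (5.11 log2 CPM).

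PDPN+ vehicle library V53175 was the lowest of its group for Mcm2 (6.43 TPM) and Pcna (56.7 TPM) and the highest for Rrm1 (91.0 TPM). PDPN+ vehicle library V53185 was the highest for Mki67 (10.2 TPM) and Mcm6 (30.7 TPM), and V53188 for Foxm1 (14.5 TPM). PDPN+ neratinib library N53194 was the highest for Mcm6 (65.1 TPM), and also for E2f7, where its 0.0498 TPM stands for 1 read beside 3 libraries at 0. In EpCAM+ neratinib libraries N53193 was the highest for Ccnb1 (48.9 TPM) and N53178 for Pcna (134 TPM).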

How the results depend on the processing

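Of 415 alternative values of 20 results, 391 stayed on their side of the threshold, within 1.5 times for counts of genes, or within the spread between replicates for untested medians and means. That spread was wide in PDPN+ cells. With neratinib and vehicle its SD was 1.83 and 1.41 for the S phase mean and 2.46 and 2.44 for the mitotic mean. The neratinib medians were 0.23 and 0.61, so the count of 391 is no measure of stability. Some medians counted as within the spread still changed sign. In PDPN+ cells the S phase median for neratinib was -0.22 and -0.23 in limma (pseudocounts 1 and 0.1), -0.45 without N53194 and -0.17 with the file code digit as covariate, and the mitotic median was -0.02 without N53194. The interaction medians were below 0 in limma and without PDPN+ N53194 for both classes, and for S phase genes also without PDPN+ V53175, without EpCAM+ V53192, without PDPN+ V53175 and V53188 together, over the mice with both populations, and with the block (-0.35). Between populations the mitotic median was 0.01 without PDPN+ N53180 and 0.02 without PDPN+ V53175. DESeq2 called 76 genes for neratinib in PDPN+ cells (24 higher, 52 lower), 15 in EpCAM+ cells (4 higher, 11 lower) and 691 for the interaction (202 higher, 489 lower). One fit of all 19 libraries called 111 genes in PDPN+ cells (21 higher, 90 lower). Between populations, limma called 30 members with a pseudocount of 1 and 31 with 0.1, all lower, with a mitotic median of -1.91 for the second. Leaving out 1 library gave 5 to 13 members there (lowest without PDPN+ V53179, highest without N53194), 9 to 131 genes for the interaction (highest without PDPN+ V53188) and 0 to 1 member (1 without PDPN+ V53175). The interaction gave 1 gene with limma at a pseudocount of 1 and 10 at 0.1. Without Ccna2, Mybl2 and Uhrf1, the mitotic minus the S phase mean was 0.25 with neratinib and 0.29 with vehicle in EpCAM+ cells, and 0.33 and -0.06 in PDPN+ cells. The mean difference also changed sign on log2(TPM + 1) in PDPN+ neratinib (-0.12), EpCAM+ neratinib (-0.14) and EpCAM+ vehicle libraries (-0.12). Leaving out 1 library turned it in PDPN+ neratinib (-0.17 without N53194, -0.06 without N53184), PDPN+ vehicle (0.10 without V53175) and EpCAM+ neratinib cells (-0.06 without N53194, -0.02 without N53193). The cause was not tested.

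With the mouse as replicate block, 4 members differed between populations and 0 genes were called for the interaction. Chosen after the data were seen, the same mice with no block gave 5 members and 1 interaction gene, leaving out PDPN+ V53175 and V53188 gave 572 interaction genes (31 higher, 541 lower) with 1 member, E2f7, and turned Ccnb2 in PDPN+ cells to 0.15, and leaving out EpCAM+ V53175, V53176 and N53178 gave 1 interaction gene. No paired analysis was possible for neratinib itself because no mouse number occurs under both treatments. Precision was lowest in PDPN+ cells, where the SE of the members had a median of 1.38, against 0.21 in EpCAM+ cells. Single-gene changes of about 1.38 were not detectable in PDPN+ cells, and fitted changes as large as 2.60 (Bub1, SE 2.12) were not called.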
